A study of Mus musculus with 12 samples.

Results

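The transcripts followed here are those of 10 enzymes of glucose breakdown (Hk1, Hk2, Pfkl, Pfkp, Aldoa, Pgk1, Eno1, Pkm, Ldha and Pdk1), chosen by gene symbol in both deposited tables. They make up 10 genes in 11 rows, since Aldoa is listed under 2 gene IDs, of 18765 genes at 5 days and 18712 at 10 days. Poly(A) RNA came from mouse embryonic stem cells of the E14 line. In all 4 groups RACK1 carries a degron tag (AID) that responds to auxin, beside the auxin receptor Tir1 fused to the ribosomal protein RPS26, the "Ribo-Tweezer" arrangement. Auxin (indole-3-acetic acid, IAA) lets Tir1 bring the degron-tagged protein to destruction, here RACK1 on the small ribosomal subunit. The first pair of groups received IAA or the solvent DMSO for 5 days. The second pair was sampled 10 days after withdrawal, cells that had been given IAA for 5 days against their own DMSO control. Each group had 3 libraries, so each comparison rests on 6. The labels number the replicates without saying whether they were separate cultures, so the p-values measure the spread between libraries, which may be technical. No group lacks the tags, so an effect of the tags themselves cannot be told apart, and the labels do not say whether the line is a single clone.

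Glycolysis turns glucose into pyruvate in the cytosol. Hexokinase, phosphofructokinase and pyruvate kinase catalyse its irreversible steps, lactate dehydrogenase turns pyruvate into lactate, and pyruvate dehydrogenase kinase holds pyruvate back from mitochondria by phosphorylating the pyruvate dehydrogenase complex. Mouse embryonic stem cells use both glycolysis and respiration, and the move from the naive to the primed state is known for a shift towards glycolysis. Several of these genes are textbook targets of the hypoxia-inducible factor HIF1 and of MYC.

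The deposited values are the authors' own limma comparisons, with a log2 fold, a mean log2 CPM (read counts scaled to library size) and a p-value per gene, and single libraries are not analysed here. Standard errors (SE) were obtained by dividing each fold by t. Group levels were derived on the log2 scale as the mean plus or minus 0.5 of the fold. A call means a Benjamini-Hochberg (BH) adjusted p under 0.05 over the whole table. Positive folds are taken here to mean more RNA with IAA, since no header states the direction. As a check, the shift in mean level from one table to the other was regressed on the 5-day fold over 4772 called genes. The slope was 0.533 ± 0.0114 (SE); with alike DMSO controls, 0.5 goes with the direction taken and -0.5 with the opposite. Read depth, estimated from the lowest levels in each table as a geometric mean over libraries, came to 23.3 M at 5 days and to 21.2 M at 10 days. At that depth the rows of the 10 genes stood for about 1085 reads per library (Hk1) to 124059 (Pkm) at 5 days, other than the second Aldoa row at about 29. All 10 embryonic stem cell markers checked were present, with Pou5f1 at 10.76 log2 CPM in DMSO cells of 5 days as derived from the authors' deposited table.

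Per kilobase of transcript, enzymes of the later steps were far more abundant than those of entry. In DMSO cells of 5 days Pkm stood highest at 11.08 log2 CPM per kb, followed by Aldoa at 10.67, Eno1 at 10.29, Ldha at 9.81 and Pgk1 at 9.44, as derived from the authors' deposited table. Pfkl followed at 7.03, Pfkp at 6.16, Pdk1 at 5.60, Hk2 at 5.45 and Hk1 at 3.85 log2 CPM per kb. The tables give no error for a group level, so no neighbours in this order were tested. The value of Ldha rests on the deposited transcript of 912 bases, whose end is incomplete in GENCODE M21, while the principal transcripts of that gene have 1588 and 1766 bases. Reads of Eno1 may be split with its close copy Eno1b, so the place of Eno1 in this order is uncertain. Summed per kb, enolase RNA stood at 3095 CPM in DMSO cells of 5 days, against 2165 for pyruvate kinase.

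**Figure D1:**
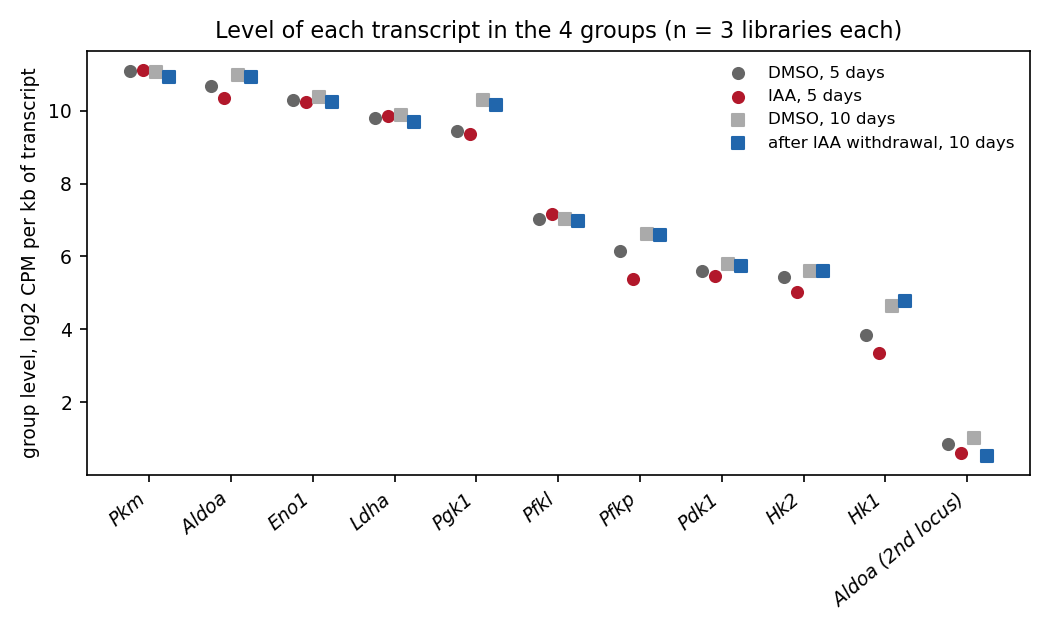
Derived level of each of the 11 rows (log2 CPM per kb of deposited transcript, vertical axis) in the 4 groups, ordered by the 5-day DMSO level, with 1 point per group of 3 libraries and no error available. Pfkp, Hk2, Hk1, Aldoa (main row), Pgk1 and Pdk1 each have their lowest level in IAA cells of 5 days. Of these, Pgk1 and Pdk1 were not called at 5 days. Each of these rows also stands higher in both groups of 10 days than in both of 5 days.

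After 5 days of IAA 4 of the 10 genes fell and none rose: Pfkp, Hk1, Hk2 and Aldoa. Over all genes 25.5% were called, 12.1% lower and 13.5% higher, and 36.3% had an unadjusted p under 0.05. The median fold of the 11 rows was -0.15 on the log2 scale, against 0.01 over all genes, and 8 of the 11 rows lay below 0. No cause of this was tested. RNA was pooled over cells, so fewer cells of a kind and less RNA per cell cannot be told apart.

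Hexokinase traps glucose in the cell as glucose 6-phosphate. Both main isozymes fell. Hk2 (ENSMUST00000000642.10, chromosome 6, 82725025 to 82774454, minus strand, 18 exons, GRCm38), an isozyme of muscle and of growing cells that binds mitochondria, had derived levels of 7.48 log2 CPM in IAA and 7.91 in DMSO. Its log2 fold in the authors' deposited table was -0.43 ± 0.08 (SE, limma adjusted p = 0.00177), so its RNA decreased by 25.6%. Hk1 (ENSMUST00000116238.8, chromosome 10, 62269104 to 62379908, minus strand, 22 exons), the isozyme of brain and red cells, stood at 5.29 log2 CPM in IAA and 5.79 in DMSO. The authors' deposited table gave it -0.50 ± 0.14 (adjusted p = 0.0159), and its RNA decreased by 29.3%. Hk3 and Hkdc1 were rare, with mean levels of -3.31 and -3.14 log2 CPM and folds of -0.17 ± 0.68 and 0.39 ± 0.73 in the authors' deposited table, neither called. Summed per kb, hexokinase RNA decreased by 26.4%, while the share of Hk2 was 75.5% in IAA and 74.7% in DMSO.

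Phosphofructokinase commits sugar to glycolysis, and its isozymes did not move together. Pfkp, the platelet isozyme (ENSMUST00000138703.7, chromosome 13, 6579768 to 6648777, minus strand, 22 exons), had the largest fall of the 10 genes, from 8.21 log2 CPM in DMSO to 7.45 in IAA. In the authors' deposited table this was -0.76 ± 0.14 (adjusted p = 0.00154), and the RNA decreased by 41.0%. Pfkl, the liver isozyme (ENSMUST00000020522.8, chromosome 10, 77986947 to 78009807, minus strand, 22 exons), had 0.12 ± 0.08 in the authors' deposited table (adjusted p = 0.298, 95% confidence interval -0.05 to 0.30). Pfkm, the muscle isozyme, rose by 0.37 ± 0.07 in the authors' deposited table (adjusted p = 0.00227). Counted per kb, Pfkp made up 33.2% of phosphofructokinase RNA in DMSO and 20.9% in IAA, Pfkl 60.9% and 70.9%, and Pfkm 5.91% and 8.18%. The summed level of the family decreased by 6.38%, and none of these shares has an error. The coding sequences of Pfkl and Pfkp shared 68.9% of aligned bases, those of Hk1 and Hk2 73.3%, so these isozymes are distinct in sequence.

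**Figure D2:**
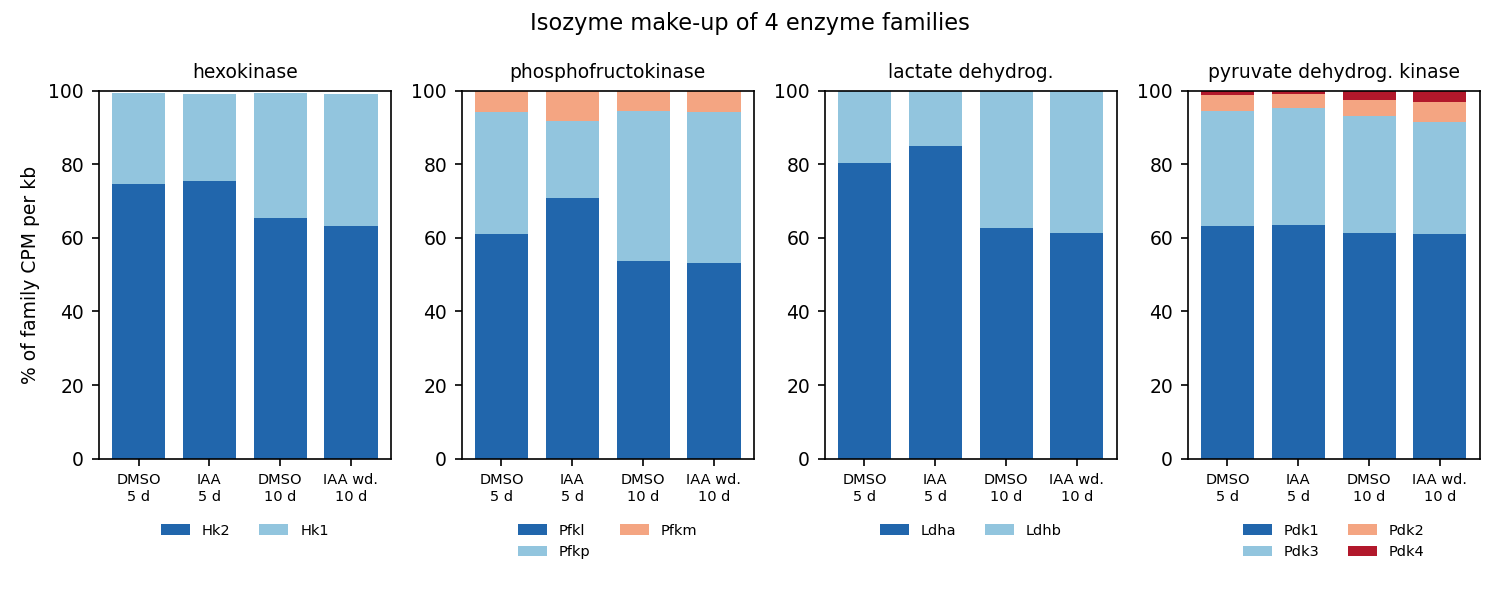
Share of each isozyme (percent of the family's CPM per kb, vertical axis) in the 4 groups for hexokinase, phosphofructokinase, lactate dehydrogenase and pyruvate dehydrogenase kinase, leaving out isozymes under 1%; wd. marks IAA withdrawal. The share of Pfkp is 20.9% in IAA cells of 5 days and 33.2% to 40.9% in the other groups. Ldhb makes up 14.9% and 19.5% at 5 days against 37.2% and 38.5% at 10 days. These lactate dehydrogenase shares rest on the incomplete Ldha transcript of 912 bases. With the length of a principal transcript, 1588 or 1766 bases, Ldhb would have a larger share in each group.

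Aldolase splits fructose 1,6-bisphosphate into a pair of triose phosphates. Aldoa (ENSMUST00000106348.7, chromosome 7, 126795235 to 126800447, minus strand, 9 exons), the form of muscle and most tissues, stood at 10.90 log2 CPM in IAA and 11.21 in DMSO. Its fold in the authors' deposited table was -0.31 ± 0.08 (adjusted p = 0.00969), and the RNA decreased by 19.3%. The call was lost with trends of fold on transcript length, GC content and expression removed (fold -0.19, adjusted p = 0.0973, over alternatives of 0.00675 to 0.0973). The second row with this symbol (ENSMUST00000207534.2, chromosome 7, 126800790 to 126809108, minus strand, 4 exons) lies just upstream of the first and had -0.24 ± 0.33 in the authors' deposited table (adjusted p = 0.654). Aldoc, the brain isozyme, had -0.41 ± 0.19 in the authors' deposited table (adjusted p = 0.138) and made up 0.72% of aldolase RNA per kb in IAA. Pgk2, the testis phosphoglycerate kinase, was in neither table.

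Pgk1 and Eno1, of the phase that yields ATP, did not pass at 5 days. Pgk1 (ENSMUST00000081593.12, chromosome X, 106187100 to 106203699, plus strand, 11 exons), which makes the first ATP, stood at 10.22 log2 CPM in IAA and 10.31 in DMSO. Its fold in the authors' deposited table was -0.10 ± 0.10 (adjusted p = 0.523, interval -0.31 to 0.12). Eno1 (ENSMUST00000080926.12, chromosome 4, 150236952 to 150248879, plus strand, 12 exons), the main enolase, had -0.05 ± 0.05 in the authors' deposited table (adjusted p = 0.493, interval -0.15 to 0.05). Eno1b, known as a close copy of Eno1, was listed at 58.9% of enolase RNA per kb in IAA against 40.4% for Eno1, so reads may be split between them and both values are uncertain. Eno1b had -0.05 ± 0.05 in the authors' deposited table, and the neuronal Eno2 and muscle Eno3 had 0.01 ± 0.26 and 0.13 ± 0.10, with no call.

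Pkm (ENSMUST00000034834.15, chromosome 9, 59656368 to 59679375, plus strand, 11 exons), whose M1 and M2 splice forms share a single row here, had the highest listed level of the 10 at 12.39 log2 CPM in IAA and 12.36 in DMSO. Its fold in the authors' deposited table was 0.03 ± 0.04 (adjusted p = 0.643), with an interval of -0.06 to 0.12. Pklr, the isozyme of liver and red cells, had 0.52 ± 0.33 in the authors' deposited table (adjusted p = 0.292) and 0.02% of pyruvate kinase RNA per kb.

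Ldha (ENSMUST00000147535.7, chromosome 7, 46841475 to 46851994, plus strand, 6 exons in the deposited transcript) stood at 9.72 log2 CPM in IAA and 9.67 in DMSO. It had 0.05 ± 0.06 in the authors' deposited table (adjusted p = 0.61, interval -0.08 to 0.18). With length and GC trends removed Ldha was called higher, at 0.22 (adjusted p = 0.0179), and at 0.27 with the expression trend removed as well (adjusted p = 0.00693, over alternatives of 0.00693 to 0.61). Both rest on the incomplete deposited length. Ldhb, the heart isozyme, had -0.42 ± 0.16 in the authors' deposited table (adjusted p = 0.0636), and the testis isozyme Ldhc -0.45 ± 0.29 (adjusted p = 0.29).

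Pdk1 (ENSMUST00000006669.5, chromosome 2, 71873224 to 71903858, plus strand, 11 exons) had -0.15 ± 0.09 in the authors' deposited table (adjusted p = 0.262, interval -0.34 to 0.05), at 7.83 log2 CPM in IAA and 7.98 in DMSO. Its relatives Pdk2, Pdk3 and Pdk4 had -0.35 ± 0.17, -0.14 ± 0.07 and -0.51 ± 0.24 in the authors' deposited table, none called. Pdk1 held 63.6% of the family's RNA per kb in IAA and 63.2% in DMSO.

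**Figure D3:**
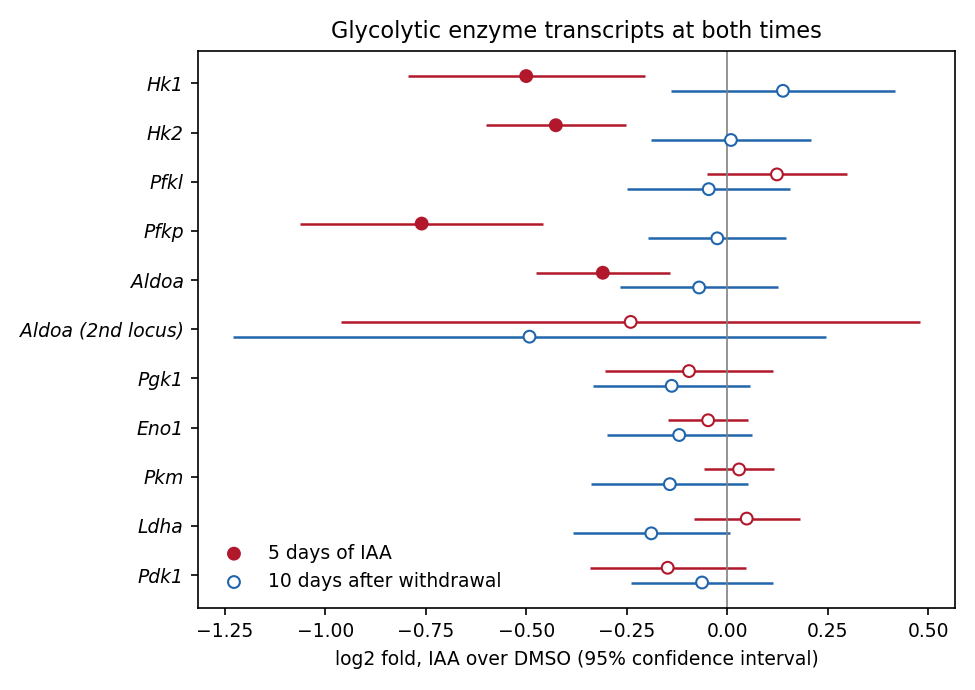
Log2 fold of IAA over DMSO (horizontal axis) for each of the 11 rows at 5 days (red) and 10 days after withdrawal (blue), from the authors' deposited tables, with 95% confidence intervals from the implied SE; filled points passed an adjusted p of 0.05. Hk1, Hk2, Pfkp and Aldoa are filled at 5 days, between -0.31 and -0.76, and no point is filled at 10 days.

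Promoters are shown for members on both sides of the call, since HIF1 and MYC are known to act on this pathway. They come from RefSeq on GRCm38.p6, 250 bases before to 50 after a start site, read 5′ to 3′ on the gene's strand. Capitals mark the HIF core ACGTG or GCGTG and the E-box CACGTG, which MYC binds, searched on both strands; the E-box contains ACGTG, so these overlap. The first 2 genes fell at 5 days, and the other 3 did not pass.
Hk2, chr6:82774405-82774704, minus strand: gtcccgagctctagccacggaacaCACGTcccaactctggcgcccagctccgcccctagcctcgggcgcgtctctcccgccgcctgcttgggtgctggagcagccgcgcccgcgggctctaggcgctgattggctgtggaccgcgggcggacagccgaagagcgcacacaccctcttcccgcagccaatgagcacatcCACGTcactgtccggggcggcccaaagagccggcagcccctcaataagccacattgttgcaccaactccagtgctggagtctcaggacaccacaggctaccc
Pfkp, chr13:6648722-6649021, minus strand: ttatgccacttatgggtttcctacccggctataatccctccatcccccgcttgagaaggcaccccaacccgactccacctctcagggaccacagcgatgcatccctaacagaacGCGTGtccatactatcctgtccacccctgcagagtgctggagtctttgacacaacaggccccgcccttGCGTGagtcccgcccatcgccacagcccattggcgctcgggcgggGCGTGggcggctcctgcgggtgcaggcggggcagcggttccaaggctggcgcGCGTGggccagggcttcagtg
Pfkl, chr10:78009758-78010057, minus strand: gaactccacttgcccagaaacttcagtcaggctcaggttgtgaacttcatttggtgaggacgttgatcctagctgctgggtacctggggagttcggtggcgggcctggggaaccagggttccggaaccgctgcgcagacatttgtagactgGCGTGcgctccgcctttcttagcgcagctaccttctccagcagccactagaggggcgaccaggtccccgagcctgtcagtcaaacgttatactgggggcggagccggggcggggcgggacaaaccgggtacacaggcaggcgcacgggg
Pgk1, chrX:106186850-106187149, plus strand: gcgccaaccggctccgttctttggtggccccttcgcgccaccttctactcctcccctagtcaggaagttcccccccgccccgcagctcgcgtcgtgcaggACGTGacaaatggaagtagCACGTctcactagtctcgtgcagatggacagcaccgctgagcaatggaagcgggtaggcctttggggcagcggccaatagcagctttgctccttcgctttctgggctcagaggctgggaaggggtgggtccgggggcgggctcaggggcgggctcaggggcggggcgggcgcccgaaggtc
Ldha, chr7:46845554-46845853, plus strand: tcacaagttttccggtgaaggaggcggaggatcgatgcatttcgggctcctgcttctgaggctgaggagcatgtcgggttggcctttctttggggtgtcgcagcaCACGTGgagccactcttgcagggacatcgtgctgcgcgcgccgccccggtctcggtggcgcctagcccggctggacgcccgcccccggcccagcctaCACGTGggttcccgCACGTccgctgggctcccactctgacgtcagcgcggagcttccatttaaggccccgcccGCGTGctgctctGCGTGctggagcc

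Hk2 and Pgk1 each hold ACGTG at 2 positions, Pfkp GCGTG at 4 and Pfkl GCGTG at 1. Ldha has ACGTG at 5 positions, GCGTG at 2 and CACGTG at 2. Each CACGTG reads as ACGTG on either strand and so enters the ACGTG count at 2 positions, not as separate sites. The Ldha window lies 4329 bases from the start of the deposited transcript. Of the 10 genes 7 hold ACGTG or GCGTG in the window nearest to the deposited start, against 43.8% of the 32851 windows in the RefSeq table, and 1 holds CACGTG, against 7.15%. Hk1, Aldoa and Pkm hold none of the motifs in that window. RefSeq lists 2 windows each for Hk1, Pkm, Ldha and Pdk1 and 3 each for Aldoa and Eno1, and only the nearest was counted. For Pkm the nearest window lies 208 bases from the deposited start and for Eno1 244. The finding of a motif, and of none, thus depends on the window chosen. In the windows counted, genes that fell and genes that did not pass occur with and without the motifs, and a link to the folds was not tested. The windows printed have a GC content of 62.3% to 67.3%, above the table's median of 52.7%, and the motifs contain CG. Among the windows not printed, Hk1 has 51.3%, Aldoa 52.7%, Eno1 57.0%, Pkm 65.0% and Pdk1 66.0%.

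At 10 days after withdrawal none of the 11 rows was called in the authors' deposited table, and neither was any of the 18712 genes (0%), where the smallest limma adjusted p was 0.822. At an unadjusted p under 0.05 there were 805 genes (4.3%), none of them among the 11 rows. The median fold of the rows was -0.07, against 0.0003 over all genes, and 9 of 11 lay below 0. Ldha came closest with -0.19 ± 0.09 in the authors' deposited table (unadjusted p = 0.0576, adjusted p = 0.901, interval -0.38 to 0.01). Pkm had -0.14 ± 0.09 there, Pgk1 -0.14 ± 0.09, Eno1 -0.12 ± 0.08, Aldoa -0.07 ± 0.09 (-0.49 ± 0.35 in its second row), Pdk1 -0.06 ± 0.08 and Pfkl -0.05 ± 0.10, all in the authors' deposited table. Besides Aldoa, the genes that had fallen at 5 days also had intervals that included 0. Pfkp lay at -0.02 ± 0.08 (interval -0.20 to 0.15) and Hk2 at 0.01 ± 0.09 (-0.19 to 0.21) in the authors' deposited table. Hk1 had the largest positive fold of the 11 rows there, 0.14 ± 0.13 (-0.14 to 0.42).

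The change at 5 days differed from that at 10 days for 3 of the 11 rows, by a z test of the difference of both folds, BH adjusted over 18120 genes, of which 10.4% passed (4.85% with the lower fold at 5 days and 5.57% with the higher). Pfkp was lower at 5 days by -0.74 ± 0.16 (adjusted p = 0.00025), Hk1 by -0.64 ± 0.19 (adjusted p = 0.0123) and Hk2 by -0.44 ± 0.12 (adjusted p = 0.008). For Aldoa the difference was -0.24 ± 0.12 (adjusted p = 0.209), so its call at 5 days was not shown to differ from 10 days. The other rows had differences of -0.09 (Pdk1) to 0.25 (the second Aldoa row), with none called. The groups of both times share no library.

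Levels of the DMSO groups also differed between the tables, which were normalized separately, so these differences were not tested. Pgk1, called at neither time, was 0.85 log2 CPM lower in the DMSO group of 5 days than in that of 10 days (10.31 against 11.16). Hk1 was lower by 0.80 (5.79 against 6.59), Pfkp by 0.47 (8.21 against 8.68) and Aldoa by 0.31 (11.21 against 11.52). Pkm (12.36 and 12.35) and Pfkl (8.93 and 8.92) were nearly level. Over 11416 genes whose mean log2 CPM reached 1 in both tables, the median difference was -0.02 and the lowest 10% lay below -0.74. In all 9 of the 11 rows were lower in the 5-day control, with a median of -0.16.

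The remaining enzymes of the pathway are given from a list of 23, of which 21 were measured. At 5 days 1 rose (Pfkm) and 1 fell, with a median fold of -0.04. The fall was Pgam1, phosphoglycerate mutase, at -0.17 ± 0.05 in the authors' deposited table (adjusted p = 0.0134). Gapdh, which oxidises glyceraldehyde 3-phosphate and often serves as a reference gene, had 0.05 ± 0.04 (adjusted p = 0.332) and Gpi1, glucose phosphate isomerase, -0.04 ± 0.07 (adjusted p = 0.728) in the authors' deposited table. Tpi1, triose phosphate isomerase, had -0.15 ± 0.08 (adjusted p = 0.18) there.

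Of 17 transport genes, 16 were measured at 5 days, and 3 rose and none fell, with a median of 0.17. Slc16a3, the lactate exporter MCT4, rose by 0.62 ± 0.10 in the authors' deposited table (adjusted p = 0.000434). Emb, embigin, a partner protein of monocarboxylate carriers, rose by 0.49 ± 0.08 in the authors' deposited table (adjusted p = 0.000505). Both differed from 10 days, by 0.61 ± 0.13 (adjusted p = 0.000129) and 0.62 ± 0.13 (adjusted p = 8.65e-05). The inositol carrier Slc2a13 rose by 2.05 ± 0.66 in the authors' deposited table (adjusted p = 0.0365), from a mean level of -2.77 log2 CPM that rests on a few reads. The glucose carriers Slc2a1 and Slc2a3 had 0.11 ± 0.11 and -0.12 ± 0.11, and the lactate carrier Slc16a1 0.04 ± 0.06, in the authors' deposited table.

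Of 14 genes around the entry of pyruvate into mitochondria 5 fell and none rose, with a median of -0.23 and 13 of 14 folds below 0. The list mixes carriers and enzymes of pyruvate with Pdk2, Pdk3 and Pdk4, which hold entry back; these 3 lay below 0 and were not called. The mitochondrial pyruvate carrier genes Mpc1 and Mpc2 fell by 0.73 ± 0.10 and 0.72 ± 0.11 in the authors' deposited table (adjusted p = 0.000232 and 0.000437). Pdha1 and Pdhb, the E1 subunits of pyruvate dehydrogenase, fell by 0.47 ± 0.05 and 0.31 ± 0.05 there (adjusted p = 2.04e-05 and 0.000657), and Dld, its E3 subunit, by 0.22 ± 0.06 (adjusted p = 0.0173), in the authors' deposited table. Mpc1 and Pdha1 also differed from 10 days, at z test adjusted p-values of 0.000522 and 0.0029. So did Pdp2, a phosphatase gene of the complex, named after its values were seen (z test adjusted p = 0.0421). Pdp2 was called at neither time, with folds of -0.17 at 5 days and 0.27 at 10 days in the authors' deposited tables (limma adjusted p = 0.224 and 0.901).

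Of 22 regulators of glycolytic flux 3 rose and 1 fell, with a median of 0.01. Over all genes 13.5% were called higher and 12.1% lower. Lin28a and Lin28b, RNA-binding proteins that block let-7, had log2 rises of 0.36 ± 0.08 and 0.40 ± 0.10 according to the authors' deposited table (adjusted p = 0.00599 and 0.00934). Only Lin28a of this list differed from 10 days, by 0.43 ± 0.12 (z test adjusted p = 0.00491). Mycn, a MYC family factor, rose by 0.24 ± 0.06 there (adjusted p = 0.0101 in the authors' deposited table). Tigar, a fructose bisphosphatase, fell by 0.38 ± 0.06 in the authors' deposited table (adjusted p = 0.000791). Hif1a RNA had 0.14 ± 0.07 in the authors' deposited table (adjusted p = 0.127).

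Of 26 HIF targets outside glycolysis 5 rose and 4 fell, so the list had no common direction (median -0.10). Adm, adrenomedullin, rose by 1.35 ± 0.34, Bhlhe41, a repressor, by 1.10 ± 0.29, Car12, a carbonic anhydrase, by 1.03 ± 0.35 and Pam, a peptide amidase, by 0.69 ± 0.13 in the authors' deposited table. The falls were Ero1l at -0.42 ± 0.14, the demethylase gene Kdm3a at -0.30 ± 0.06, Higd1a at -0.27 ± 0.07 and the cytokine gene Mif at -0.16 ± 0.05 in the authors' deposited table, the falls being named after their values were seen.

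Genes of routes that leave glycolysis were called in both directions. Of 22 genes of branches from its intermediates 11 fell and 2 rose (median -0.19). The alanine transaminase gene Gpt2 fell by 0.69 ± 0.07, the serine hydroxymethyltransferase gene Shmt2 by 0.56 ± 0.07 and the serine synthesis gene Psph by 0.52 ± 0.07 in the authors' deposited table. Gbe1, the glycogen branching enzyme, rose by 0.96 ± 0.18 there, in the authors' deposited table. In the pentose phosphate pathway 4 of 11 fell and 1 rose (median -0.16): Taldo1 by 0.29 ± 0.05, Rpe by 0.29 ± 0.08 and Pgd by 0.18 ± 0.05 were among the falls in the authors' deposited table, and Prps2 rose by 0.27 ± 0.07. Of 8 gluconeogenic genes 7 were measured and 2 fell, Pck2 by 0.41 ± 0.08 and the rare G6pc2 by 2.15 ± 0.74 in the authors' deposited table.

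The tricarboxylic acid cycle had 16 falls and no rise among 23 genes (median -0.21, 22 of 23 folds below 0). Sdhb fell by 0.47 ± 0.05, Idh2 by 0.39 ± 0.12, Sdhc by 0.38 ± 0.06 and Suclg1 by 0.32 ± 0.06 in the authors' deposited table. None of these 9 lists had a call at 10 days.

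**Figure D4:**
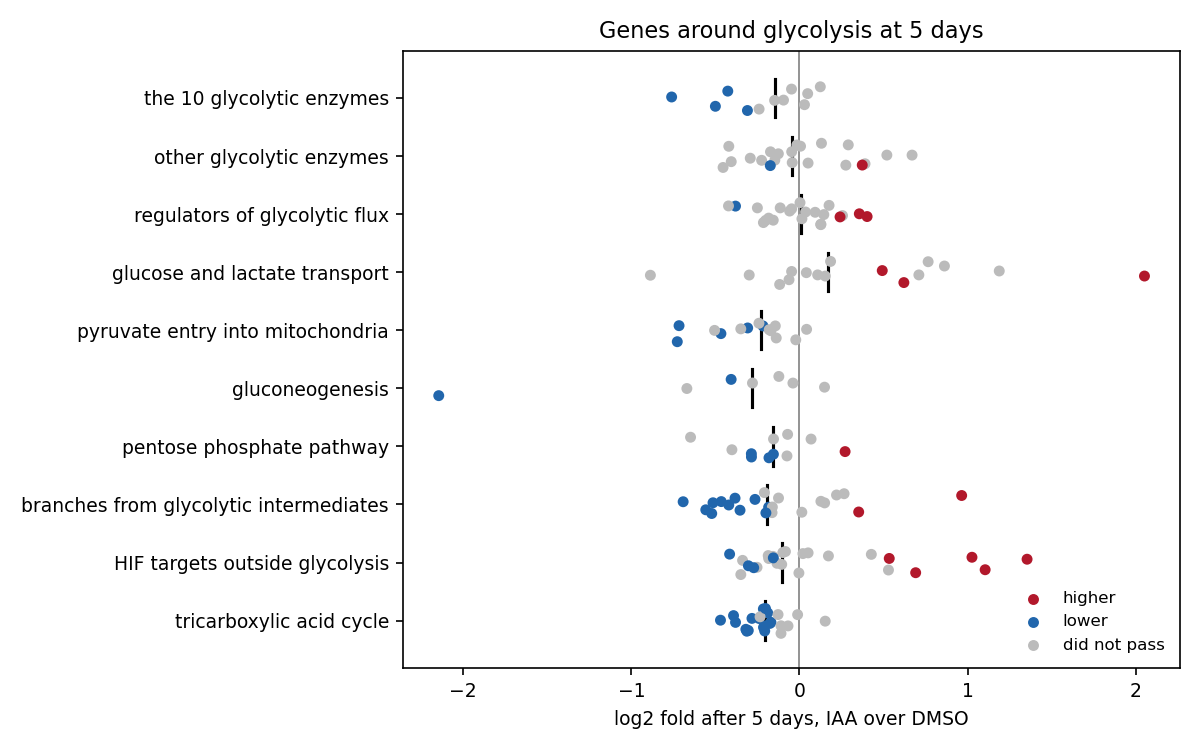
Log2 fold after 5 days of IAA over DMSO (horizontal axis, from the authors' deposited table) for each gene of the 10 enzymes and 9 lists around glycolysis, with calls in red (higher) and blue (lower) and the list's median as a black bar; vertical scatter within a list carries no meaning. The tricarboxylic acid cycle has 16 blue points of 23 and no red one, and the HIF targets have 5 red and 4 blue.

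Other measured groups moved at the same time, and their part in the results was not tested. Of 10 embryonic stem cell markers 7 fell at 5 days and none rose, Nanog by 0.74 ± 0.06 and Klf4 by 0.76 ± 0.07 in the authors' deposited table, while Pou5f1 fell by 0.15 ± 0.04. Of 23 measured fibroblast feeder markers, out of 24, 8 rose and 1 fell. The rises were Lox by 4.75 ± 0.64, Col6a1 by 1.94 ± 0.45, Col6a2 by 1.57 ± 0.32, Cyr61 by 1.17 ± 0.15, Mmp2 by 1.14 ± 0.10, Ctgf by 1.03 ± 0.13, Tagln by 0.70 ± 0.15 and Fbn1 by 0.62 ± 0.16 in the authors' deposited table, with Lox and Col6a1 at mean levels of -2.22 and -1.46 log2 CPM. Vim fell by 0.86 ± 0.07 and Fn1, the most abundant of the list, had -0.02 ± 0.09 in the authors' deposited table. The summed level of the list, to which Fn1 and Vim contribute most, was 969 CPM in IAA and 992 in DMSO at 5 days, and 1533 and 1295 at 10 days. Lum was in neither table, and Col3a1 and Dcn lay at mean levels of -3.37 and -4.49 log2 CPM in the authors' deposited table at 5 days. Of the tagged genes, Rack1 RNA fell by 0.17 ± 0.04 at 5 days in the authors' deposited table (adjusted p = 0.0051) and Rps26 had -0.05 ± 0.04 (adjusted p = 0.393). RACK1 protein was not measured here.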

How the data were processed

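Poly(A) RNA of Trizol extracts was made into TruSeq libraries, per the labels' protocols. The deposited tables hold the authors' comparisons, with the columns of a limma result table per the file headers: a log2 fold change, a mean log2 CPM over 6 libraries, a t statistic and log-odds (deposited scores without a unit), and a deposited p-value with its BH adjusted value. The authors also deposited transcript lengths and the GC fraction. For the aligner, counting program, genome build and limma version, nothing is stated in the labels or headers used. No columns of single libraries were used, so the planned count test could not be run, and the authors' limma result is the main one.

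The SE is the fold divided by t. Intervals at 95% used the degrees of freedom recovered from t and p, 13.4 at 5 days and 15.2 at 10 days. Depth came from 552 and 478 genes sharing the mean log2 CPM of 1 read in 1 library with a prior count of 0.5; the depth of single libraries is unknown. Alternatives centred the folds or removed spline trends (5 degrees of freedom, weighted by the inverse squared SE). The z test and the trend removal were tested on simulated data with normal noise of the deposited SEs. Taking the SEs as exact, that simulation could not check the error in them. The z test also treats the SEs as exact, so its p-values are smaller than a t distribution would give. Python 3.11.15, scipy 1.17.1, pandas 2.3.3 and statsmodels 0.14.6 were used. All 11 rows matched GENCODE M21 transcripts on GRCm38 with the same length; the build the authors used may differ. Members and lists were chosen with earlier results of these data known. The genes named beyond the members were every called gene of the remaining enzymes, regulators, transport and pyruvate entry lists, up to 4 called genes of largest fold in each other list, and isozymes of the members, of which some are not reported here; exceptions are stated.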

Additional observations from a re-analysis of the deposited data

Results flagged for a closer look

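Hk1, Hk2 and Pfkp are set apart because their change with IAA differed between the times by the z test. The 5-day fold minus the 10-day fold was -0.64 for Hk1, -0.44 for Hk2 and -0.74 for Pfkp on the log2 scale. Each was called lower at 5 days and had an interval that included 0 at 10 days. The DMSO levels of Hk1 and Pfkp differed between the tables as well, by -0.80 and -0.47 log2 CPM, and the part of this in the difference of folds was not tested.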

How the results depend on the processing

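Centring the folds, removing trends on length, GC and expression, stricter thresholds and a level filter left 3 to 5 of the 11 rows called at 5 days, 0 at 10 days and 2 to 4 differing between times. Hk1, Hk2 and Pfkp kept their 5-day calls under all of these at an adjusted p of 0.05, with highest values of 0.0186, 0.00249 and 0.00302; at 0.01 Hk1 lost its calls (0.0159 at 5 days, 0.0123 for the difference). Aldoa lost its 5-day call with length, GC and expression trends removed (-0.19), where Ldha gained one (0.27), as it did with length and GC alone (0.22), and its difference from 10 days passed too (0.32, adjusted p = 0.0412, over alternatives of 0.0412 to 0.165). The cause was not tested. No paired analysis was possible because the tables hold no values of single libraries. For that reason the replicate block, leaving out single libraries, other count tools and other normalizations were not run. No result here can therefore be traced to 1 library or cleared of it. Folds of rare transcripts, such as the second Aldoa row with about 29 reads per library, are limited by depth.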

Other observations

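Several of the 10 enzymes had larger SEs at 5 days than other transcripts of like level. The SE of Pfkp was 2.57 times the median SE of genes within 0.5 log2 CPM of it, that of Pgk1 2.12 times and that of Hk1 1.89 times. For Aldoa the ratio was 1.77, for Pdk1 1.67, for Pfkl 1.58 and for Hk2 1.46. Pkm (0.94), Eno1 (1.03) and Ldha (1.25) were closer to genes of their level. In all 7 of the 11 rows lay in the top 10% of genes of like level, against 1 of 11 at 10 days, where Pfkp had 0.90 and Pgk1 0.90.

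The other 21 glycolytic enzymes measured did not share this, with a median ratio of 0.99, 9 above 1 and 5 in the top 10% at 5 days. HIF targets outside glycolysis had 15 of 26 in the top 10% at 5 days (median ratio 1.35) and 3 of 26 at 10 days (1.02). The tricarboxylic acid cycle had 1 of 23 at 5 days (median ratio 0.91) and none at 10 days. At 5 days the top 10% also held 7 of 16 transport genes, 7 of 22 regulators, 6 of 22 branch genes, 1 of 14 pyruvate entry genes, 1 of 7 gluconeogenic genes and 0 of 11 pentose phosphate genes. These ratios use moderated SEs, genes of a list share their libraries, and the 10% limit was chosen after the values were seen. Which libraries carried the spread was not tested.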
